A study of Rattus norvegicus with 6 samples.

Results

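Pdx1, Mafa, Nkx6-1, Neurod1, Isl1, Pax6, Insm1 and Hhex are transcription factors by which beta cells, or islet cells in general, are often defined. These 8 genes were taken by name, not by their values, and 7 of them were matched by symbol among the 32883 genes listed for each library. Insm1 was not analysed here. Their transcripts were followed in single cells of the pancreas of male Wistar rats, with 6 rats in 3 groups of 2. Young rats were taken at 2 months on a normal diet, old rats ate the normal diet from 2 to 20 months of age, and HFHF-old rats ate a high-fat high-fructose diet over the same period. Old and HFHF-old rats thus shared their age and differed in diet, whereas young and old rats differed in age and in the time spent on the diet. Each library came from 1 rat, and the cells came from a collagenase digest with a density gradient, a preparation meant to enrich islets.

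Islet identity is held by factors that act together on hormone genes and on the machinery of secretion. Pdx1, a homeodomain protein, is needed for the pancreas to form and later activates insulin and glucose-sensing genes in beta cells, where it acts beside Mafa, a basic leucine zipper protein of mature beta cells, and Nkx6-1, a homeodomain repressor that keeps beta cells from alpha cell programmes. Neurod1, Isl1 and Pax6 serve endocrine cells of every hormone type, and Hhex is known in the adult islet as a factor of delta cells, in which it restrains alpha and beta cell genes.

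The promoters of the insulin and somatostatin genes show the letters that several of these proteins read. The homeodomain factors Pdx1, Nkx6-1, Isl1 and Hhex recognise sites with a TAAT core, and Neurod1 binds with E proteins to E boxes, of which CATCTG is the form known from insulin promoters. The 250 bases before the start site of the genes that define beta and delta cells here are given below from RefSeq (GRCr8), 5′ to 3′ on the strand of the gene, with TAAT and CATCTG and their reverse complements ATTA and CAGATG in capitals.
Ins1, chr1:261185869-261186118, plus strand: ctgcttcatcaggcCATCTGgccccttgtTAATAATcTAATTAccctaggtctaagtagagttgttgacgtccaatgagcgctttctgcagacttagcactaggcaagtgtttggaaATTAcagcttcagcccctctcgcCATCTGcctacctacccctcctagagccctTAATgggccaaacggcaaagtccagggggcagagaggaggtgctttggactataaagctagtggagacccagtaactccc
Ins2, chr1:207273806-207274055, minus strand: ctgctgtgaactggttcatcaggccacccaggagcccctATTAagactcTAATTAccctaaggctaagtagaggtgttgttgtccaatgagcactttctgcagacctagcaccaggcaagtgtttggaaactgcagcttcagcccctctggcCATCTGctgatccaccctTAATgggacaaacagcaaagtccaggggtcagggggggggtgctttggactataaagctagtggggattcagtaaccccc
Sst, chr11:90461296-90461545, plus strand: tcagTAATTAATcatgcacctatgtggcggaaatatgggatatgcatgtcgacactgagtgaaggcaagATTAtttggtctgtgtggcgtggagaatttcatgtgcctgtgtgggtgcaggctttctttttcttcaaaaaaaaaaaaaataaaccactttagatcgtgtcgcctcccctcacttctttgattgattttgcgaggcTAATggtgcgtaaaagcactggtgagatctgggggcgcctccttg
The Ins1 promoter held 6 TAAT cores and 2 CATCTG boxes, with overlapping matches counted separately, the Ins2 promoter held 4 and 1, and the Sst promoter held 5 and 0. TAAT stood on either strand in 57.0% of 33469 promoters of this length and CATCTG in 14.0%, and as many TAAT cores as in Ins1, Ins2 and Sst stood in 3.34%, 10.8% and 6.14% of them. A match is a description of the sequence and not of binding.

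The libraries held 7617 to 17724 barcodes and 77387928 to 166875258 unique molecular identifiers (UMIs), and 75201 of 78024 barcodes passed the limits on gene number and mitochondrial share. A barcode was called beta, alpha, PP or delta by its most abundant hormone transcripts (Ins1 and Ins2, Gcg, Ppy and Pyy, or Sst) if these made up at least 5% of its UMIs, or 1% for Sst. Listed as young, then old, then HFHF-old, and replicate 1 first in each group, there were 178, 3329, 536, 1322, 785 and 5 beta cells, 550, 597, 129, 816, 30 and 3 alpha cells, 134, 457, 82, 668, 63 and 0 PP cells, and 24, 11, 7, 8, 5 and 0 delta cells. Comparisons of a class took only rats with 10 or more of its cells, so that HFHF-old rats were represented in alpha, beta and PP cells by replicate 1 alone and delta cells by the 2 young rats. Among the 4 islet classes, Slc2a2 and Ucn3 were highest in beta cells, Ttr and Irx2 in alpha cells, and Casr and Ptprz1 in delta cells, though Ttr was higher in ductal (147 UPM, UMIs per 1000000) than in alpha cells (34.8), while Iapp, Slc30a8, Gc and Rbp4 were highest in an islet class other than the one they were listed for. Ghsr, a further delta cell marker, was at or under the floor of 3 UMIs in delta cells and checks nothing. Barcodes with a second hormone class at 2% or more of UMIs, or digestive enzymes at 5% or more, are called mixed here. They made up 5, 3149, 384, 421 and 596 of the beta barcodes in the 5 rats, and digestive enzyme transcripts summed to 1221, 81430, 83840, 3200 and 13880 per 1000000 UMIs (UPM) of the beta class, so the beta classes of young replicate 2, old replicate 1 and HFHF-old replicate 1 stood apart. Summed myeloid markers ran from 254 to 2924 UPM there, with young replicate 2 highest. Beta values are therefore given with all barcodes and with mixed ones left out. Of the barcode sequences, 584 occurred in more than 1 library, 11 of them in islet classes.

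The 7 factors fell into distinct patterns over the islet and exocrine classes. Mafa was nearly limited to beta cells, Nkx6-1 was shared by beta and ductal cells, Pdx1 by delta, beta and ductal cells, Hhex by delta and ductal cells, and Neurod1, Isl1 and Pax6 by all 4 hormone classes. Levels of a gene are likewise its UMIs per 1000000 UMIs of the class in a rat. They were not divided by gene length, so values are compared between cells for a gene and not between genes.

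**Figure D1:**
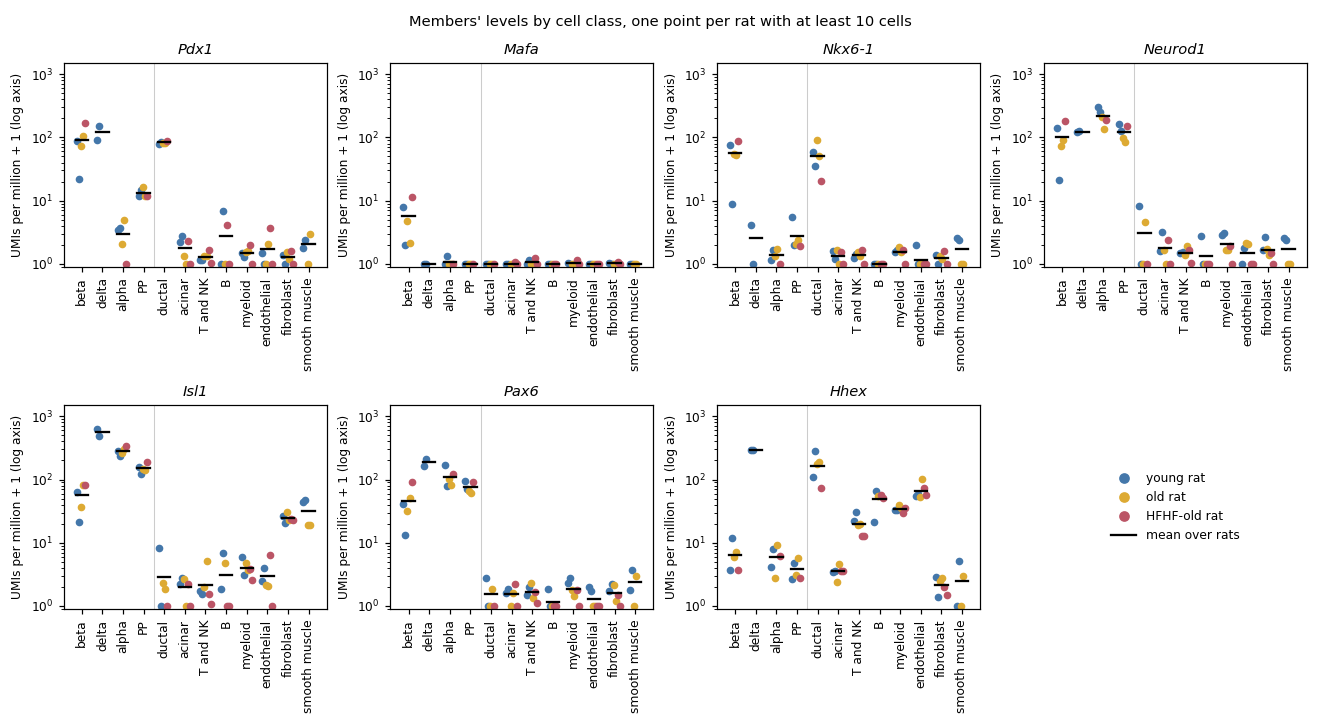
Levels of the 7 factors (UPM + 1, log axis) in the 4 islet classes and 8 other classes, with a point per rat with at least 10 cells, coloured by group, and a bar for the mean. Pdx1 ran from 76.8 to 85.3 in the ductal cells of 5 rats and stayed below 4 in alpha cells, Mafa rose above 1 UPM in beta cells only, and Hhex stood at 292 and 297 in the delta cells of the young rats.

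Pdx1 marked beta, delta and ductal cells. In beta cells it was 86.3 and 20.6 UPM in young rats, 72.3 and 104 in old rats and 169 in HFHF-old replicate 1, on 317 to 1877 UMIs per rat. The low value was that of young replicate 2, where nearly all beta barcodes were mixed, and with mixed barcodes left out the 5 rats stood at 86.4, 75.3, 94.5, 109 and 182. Delta cells held 91.0 and 152 UPM in the young rats on 29 and 23 UMIs, and 191, 145 and 223 in the small delta samples of the other 3 rats. Ductal cells held 76.8, 84.8, 82.1, 82.0 and 85.3 UPM. In UPM the ductal values lay within the range of the beta values and varied least of the 3. Means were 82.2 ± 3.37 UPM (SD, n = 5) in ductal, 90.3 ± 53.7 (n = 5) in beta and 121 ± 43.1 (n = 2) in delta cells. Without hormone and enzyme UMIs and mixed barcodes, the beta mean of Pdx1 was 364 UPM. Ductal cells held few such UMIs, with mean shares of at most 0.914% for hormones and 1.3% for enzymes in a rat. The overlap of ductal and beta cells is therefore stated for UPM only, and their difference was not tested. PP cells held a lower level that hardly differed between rats, at 10.8, 13.9, 15.5, 11.0 and 10.8 UPM. Alpha cells stood at 2.41, 2.67, 1.05, 3.86 and 0, so that the classes from ductal to PP and from PP to alpha did not overlap in any rat. T and NK lymphocytes, which lack the factor, gave 0.0217 to 0.675 UPM.

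Nkx6-1 was held by beta and ductal cells and was near 0 in the other islet cells. Its beta level was 73.8 and 7.76 UPM in the young pair, 54.4 and 51.6 in the old pair and 87.0 in HFHF-old replicate 1, and 73.9, 28.1, 72.3, 53.9 and 92.5 with mixed barcodes left out. Young replicate 2 remained the lowest under both counts. Ductal cells stood at 57.2, 33.9, 89.9, 50.3 and 19.7 UPM and overlapped with beta cells on this scale. Without hormone and enzyme UMIs, of which ductal cells held few, and without mixed barcodes, the beta mean of Nkx6-1 was 214 UPM. The difference between beta and ductal cells was not tested. In the rats compared there were 2422 UMIs of Nkx6-1 in beta cells, 11 in alpha, 21 in PP and 1 in delta cells. The pooled beta level was 77.1 times that of alpha cells (95% counting interval 43.0 to 155), 23.2 times that of PP cells (15.1 to 37.5) and 17.5 times that of delta cells (3.14 to 692), where intervals cover counting error only. The last ratio sets beta cells of 5 rats against delta cells of the 2 young rats, whose own beta levels were 73.8 and 7.76 UPM. Young replicate 2, the lowest, holds 29525983 of the 65028731 beta UMIs pooled, so the ratios lean on it.

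Mafa gave few UMIs, nearly all of them in beta cells. Its 177 UMIs in beta cells were spread as 25, 29, 24, 21 and 78 over the 5 rats, or 6.81, 0.982, 3.81, 1.16 and 10.5 UPM. Without mixed barcodes the levels were 6.82, 5.07, 5.43, 1.33 and 11.0, with old replicate 2 the lowest and HFHF-old replicate 1 the highest. Alpha cells held 2 UMIs of Mafa, acinar cells 1, and PP, delta and ductal cells 0. The pooled beta level was 31.0 times that of alpha cells (95% counting interval 8.45 to 258) and 68.9 times that of acinar cells (12.2 to 2736). Against a floor of 3 UMIs over the class it was at least 11.9-fold higher than in PP cells and at least 2.62-fold higher than in ductal cells. The alpha and acinar counts lie under that floor too, and both alpha UMIs came from young replicate 2. Too few delta cells were sampled for a difference in Mafa to be detectable at this depth.

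Beta cells were then compared with the other islet classes over the rats, with edgeR's quasi-likelihood test on UMIs summed per rat and class, the rat as a block and Benjamini-Hochberg adjustment over all 13330 genes tested. A gene was called at an adjusted p under 0.05 with a fold change over 1.5 in either direction, the limits of the study. The folds are on edgeR's TMM scale, whereas UPM counts the insulin UMIs that fill beta cells in its denominator, so the folds of beta cells mostly stand above the ratios of their UPM levels, and some have the other sign. Between beta and alpha cells 26.3% of all genes were called, and 5 of 7 factors were. Nkx6-1 was higher in beta cells by 7.41 ± 0.48 (log2 fold change ± SE, adjusted p = 1.61e-10) and Pdx1 by 5.89 ± 0.43 (adjusted p = 1.34e-09). Mafa was called higher (edgeR adjusted p = 5.9e-05), against 2 UMIs in alpha cells. It passed the filter on low counts through its beta counts, so it could be called only as higher in beta cells. It is among the 5 factors counted. Hhex was also called higher, by 1.06 ± 0.29 (adjusted p = 0.00831), although its mean UPM was close in both, at 5.52 and 5.04, whereas Isl1 was lower in beta cells, by −1.50 ± 0.27 (adjusted p = 0.000213). Neurod1 and Pax6 differed by −0.26 ± 0.35 (adjusted p = 0.614) and −0.50 ± 0.27 (adjusted p = 0.172) and were not called. The median over the 7 factors was 1.06, against 0.06 over all genes. The calls of Nkx6-1 and Pdx1 held in all 15 alternatives tried, with adjusted p up to 0.000673 and 0.00098.

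Against PP cells 20.9% of all genes and 4 of 7 factors were called, all 4 of them higher in beta cells. Nkx6-1 stood higher by 5.63 ± 0.43 (log2, adjusted p = 3.74e-09), Pdx1 by 3.69 ± 0.38 (adjusted p = 2.05e-07) and Hhex by 1.75 ± 0.34 (adjusted p = 0.000456). Mafa was called (edgeR adjusted p = 7.74e-05) against 0 UMIs in PP cells, and passed the filter on low counts through its beta counts. Neurod1 was at 0.64 (adjusted p = 0.192) with all barcodes and was called at 1.07 (adjusted p = 0.00023) with mixed barcodes left out, in a range of adjusted p up to 0.469 over its 15 alternatives, 4 of which called it. In UPM the sign of Neurod1 was the opposite, with means of 100.5 in beta and 123 in PP cells, or 118 and 125 with mixed barcodes left out, and in UMIs other than those of hormones and enzymes, mixed barcodes left out, beta cells were the higher at 392 against 196. Isl1 (−0.53, adjusted p = 0.152) and Pax6 (0.04) were not called, and in UPM Pax6 was the lower in beta cells, with means of 44.2 against 75.8. Hhex had UPM means of 5.52 and 2.83, a smaller ratio than its fold. Under DESeq2 Mafa was not called in either comparison, with adjusted p of 0.348 against alpha and 0.34 against PP cells, the highest of its 15 alternatives in both, of which 14 called it.

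Against delta cells 11.4% of all genes and 3 of 7 factors were called. Hhex was lower in beta cells by −4.44 ± 0.35 (log2, adjusted p = 3.66e-08) and Isl1 by −2.13 ± 0.38 (adjusted p = 0.000619), and Nkx6-1 was higher (adjusted p = 0.000835) on the single delta UMI given above. Leaving out young replicate 1, which left the 11 delta cells of young replicate 2 alone, ended the Nkx6-1 call, and 14 of its 15 alternatives called it. Pdx1 differed between beta and delta cells by 0.76 ± 0.56 (adjusted p = 0.409) with all barcodes. With mixed barcodes left out young replicate 2 fell to 8 delta cells. The delta class of that fit was then young replicate 1 alone, with 22 cells, and the fold of Pdx1 was 1.56. The other alternatives did not call Pdx1, with edgeR or DESeq2 adjusted p up to 0.966. In UPM delta cells held the more Pdx1, with means of 121 against 90.3 in beta cells, or 128 against 109 with mixed barcodes left out, while without hormone and enzyme UMIs and mixed barcodes beta cells held 364 against 161. These delta means take both young rats, replicate 2 with its 8 unmixed cells included. Which of the classes was higher in Pdx1 thus depended on the scale. Delta cells in turn differed from alpha cells in 2 of 7 factors, against 4.39% of all genes. Hhex was higher by 5.50 ± 0.37 (adjusted p = 1.7e-09) and Pdx1 by 5.13 ± 0.62 (adjusted p = 6.12e-06). Without young replicate 2 and HFHF-old replicate 1, the libraries with the most mixed beta barcodes, 5 and 5 factors were called for beta against alpha and PP cells, where 18% and 14% of all genes were. Delta cells were then young replicate 1 alone, so no counts are given for them. A further alternative, named free RNA subtracted, took the mean counts of a T or NK lymphocyte of the library off the class for each cell. The lymphocytes' own transcripts were part of what it removed. Under it Pdx1 in delta against alpha cells had an edgeR adjusted p of 0.077, the highest of its 15 alternatives, 14 of which called it.

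**Figure D2:**
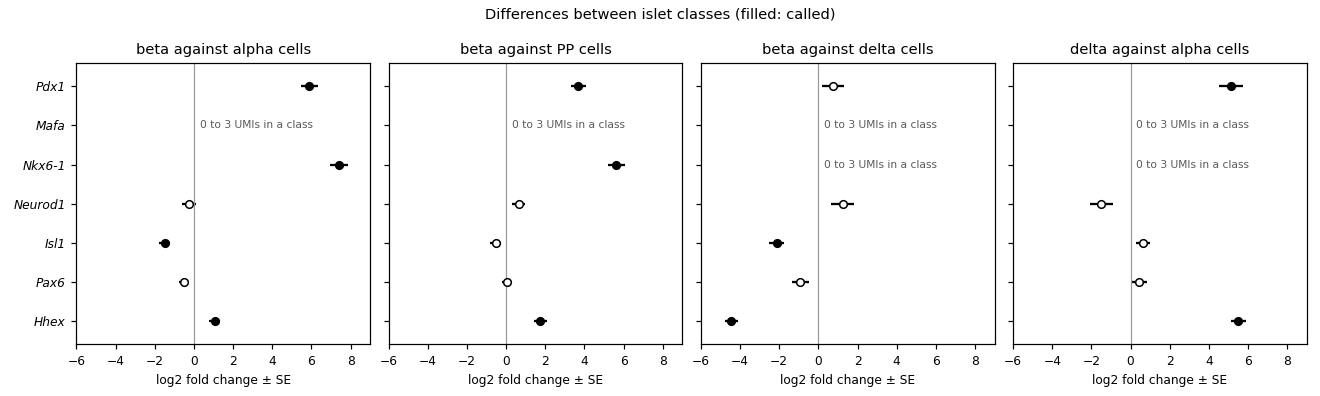
Log2 fold changes ± SE of the factors (edgeR), in a panel per comparison of islet classes, with filled points for factors called; no point is drawn where a class held 0 to 3 UMIs of the gene, as for Mafa. Nkx6-1 and Pdx1 lie far above 0 for beta against alpha cells (7.41 and 5.89) and against PP cells (5.63 and 3.69), and Hhex lies at −4.44 for beta against delta and 5.50 for delta against alpha cells.

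Isl1, Neurod1 and Pax6 set the hormone classes apart from the exocrine pancreas. For the mean of the 4 islet classes against acinar cells, a comparison in which 47.9% of all genes were called, Isl1 was higher by 5.55 ± 0.37 (log2, adjusted p = 1.86e-11), Pax6 by 5.17 ± 0.41 (adjusted p = 2.64e-10) and Neurod1 by 5.09 ± 0.49 (adjusted p = 8.41e-09). Pdx1 was the fourth factor called, at 2.89 ± 0.49 (adjusted p = 2.71e-05). Hhex (0.54, adjusted p = 0.144), Nkx6-1 (1.03, adjusted p = 0.333) and Mafa (adjusted p = 0.859) were not called, and each was low in 3 of the 4 classes averaged. Scaling to UMIs other than those of hormone and enzyme genes moved the median of all genes in this comparison from 0.03 to 1.10, and turned a split of 3134 genes called higher and 3257 called lower into 7710 and 1153. Subtracting free RNA moved that median to 4.15 and the split to 4560 and 398. Hhex was called in 3 of 15 alternatives (adjusted p 4.32e-05 to 1) and Nkx6-1 in 1 (0.0197 to 1), and the calls of Isl1, Pax6, Neurod1 and Pdx1 held in all 15.

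Isl1, a LIM homeodomain factor, was ordered delta, alpha, PP and beta in UPM, with no overlap between neighbours in that order over the rats. The test did not call every step of this order. Delta against alpha cells was at 0.63 (log2, adjusted p = 0.437) and called in 0 of 15 alternatives, which ran from −0.36 to 0.81, beta against PP cells was called in 0 of 15, and alpha against PP cells was not tested. Delta cells held 618 and 495 UPM in the young rats and 658, 816 and 854 in the small samples of the others. Alpha cells held 286, 235, 265, 299 and 336, PP cells 159, 123, 148, 140 and 185, and beta cells 62.1, 20.0, 36.2, 81.4 and 81.7. Insulin transcripts fill much of a beta cell's UMIs, and hormone and enzyme genes took 58.0 to 77.4% of the UMIs of unmixed beta cells against 23.3 to 45.1% in alpha cells. Counted per 1000000 of the other UMIs (called non-hormone UPM here) with mixed barcodes left out, Isl1 was 216, 150, 171, 267 and 201 in beta cells and 375, 451, 465, 553 and 468 in alpha cells, still without overlap. Its call against alpha cells was lost only when free RNA was subtracted (−1.09, adjusted p = 0.407, the highest of 15 alternatives). Against delta cells it was lost at a hormone share of 10% (adjusted p = 0.115) and with free RNA subtracted (adjusted p = 0.807), and held in the other 13 alternatives. Outside the epithelium Isl1 reached 19.9 to 29.2 UPM in fibroblasts and 17.8 to 46.6 in smooth muscle cells.

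Neurod1, a basic helix-loop-helix factor, was 298, 255, 210, 136 and 188 UPM in alpha cells and 160, 124, 96.0, 85.0 and 151 in PP cells. Beta cells held 141, 20.5, 71.4, 90.8 and 178 UPM, and the delta cells of the young rats 119 and 126. Alpha and beta values overlapped, and which class was higher depended on the denominator. In non-hormone UPM with mixed barcodes left out, Neurod1 was 490, 328, 350, 338 and 452 in beta cells and 391, 492, 377, 253 and 284 in alpha cells, higher in beta cells in 3 of 5 rats. Neither order was called.

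Pax6, a paired box factor, had its highest mean in delta cells, at 163 and 211 UPM in the young rats and 138, 230 and 186 in the others. Alpha cells held 168, 78.6, 99.7, 80.0 and 120 UPM, PP cells 94.1, 70.4, 65.0, 59.5 and 89.8, and beta cells 40.3, 12.2, 30.4, 49.2 and 89.1. Ranges of delta and alpha cells overlapped, with alpha cells above delta cells in young replicate 1, as did those of alpha and PP cells and of PP and beta cells. Delta against alpha cells was called in 0 of 15 alternatives, from −0.16 to 1.01. In non-hormone UPM without mixed barcodes, beta cells held 140, 85.5, 147, 178 and 223 and alpha cells 224, 147, 174, 149 and 153, so the classes overlapped on that scale. Beta and delta cells differed in Pax6 by −0.92 and in Neurod1 by 1.24 on the log2 scale, and neither was called with all barcodes. In UPM Neurod1 had the other sign, with means of 100.5 in beta and 122 in delta cells. Neurod1 was at 1.72 with mixed barcodes left out, where delta cells were 1 rat. That fit was among the 3 of 15 alternatives that called Neurod1.

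Hhex stood highest in delta cells, at 292 and 297 UPM in the young rats on 93 and 45 UMIs. The delta samples of the other rats held 520, 310 and 334 UPM, each on 27 to 49 UMIs. Ductal cells came next with 107, 280, 173, 186 and 72.2, and did not overlap with delta cells. Endothelial cells held 52.6 to 101 UPM, B cells 20.1 to 64.9, myeloid cells 28.9 to 38.9 and T and NK lymphocytes 11.7 to 29.5, so Hhex was present in most of the other classes of the digest. In beta cells it was 2.72, 11.0, 4.93, 6.24 and 2.69 UPM, below every lymphocyte value on this scale, and 2.73, 2.73, 2.04, 2.87 and 0.743 with mixed barcodes left out. In non-hormone UPM the mean over all beta barcodes, given in the last section, lay within the lymphocyte range in UPM. With mixed barcodes left out that beta mean was 8.29. Alpha cells held 3.21, 6.92, 1.75, 8.16 and 5.14 UPM on 3 to 55 UMIs, and PP cells 1.71, 3.85, 2.06, 4.72 and 1.80 on 2 to 24. The calls of Hhex as higher in beta cells than in alpha and PP cells rest on these small levels. With mixed barcodes left out they were 0.92 (adjusted p = 0.0935) against alpha and 1.23 (adjusted p = 0.0502) against PP cells, and neither was called. In UPM with mixed barcodes left out Hhex was lower in beta than in alpha cells, with means of 2.22 and 3.59, against the sign of the fold. Over 15 alternatives the call against alpha cells held in 10 (adjusted p 0.00358 to 0.19) and that against PP cells in 12 (6.17e-05 to 0.283), with the highest of both where free RNA was subtracted, as measured in lymphocytes that hold Hhex themselves. It was also lost against alpha cells without old replicate 1 (adjusted p = 0.0591). The call of Hhex against delta cells held in all 15.

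Within the beta class Pdx1 was highest in the barcodes with the most insulin in all 5 rats. Beta barcodes were split by insulin share into 5 to 10%, 10 to 20%, 20 to 40% and over 40% of UMIs, and levels were taken in non-hormone UPM. Pdx1 was 6.89, 11.5, 17.2 and 295 over these steps in young replicate 2, from 582, 1871, 581 and 295 barcodes. It was 15.6, 5.20, 40.3 and 371 in old replicate 1, 28.4, 45.9, 115 and 404 in old replicate 2 and 17.7, 126, 387 and 441 in HFHF-old replicate 1. In young replicate 1 it was 103, 27.8, 43.3 and 356, with the second step on 18 barcodes and 1 UMI of Pdx1. Barcodes over 40% insulin thus held 295 to 441 of Pdx1 in every rat, and the 2 lowest steps far less. Depth moved with the steps, from a median of 648.5 UMIs in the lowest to 37087 in the highest in HFHF-old replicate 1 and from 984 to 7803 in young replicate 2. So did digestive enzymes, at 11.4, 9.83, 9.42 and 3.77% of UMIs in young replicate 2, and the part of either in the low levels was not tested.

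**Figure D3:**
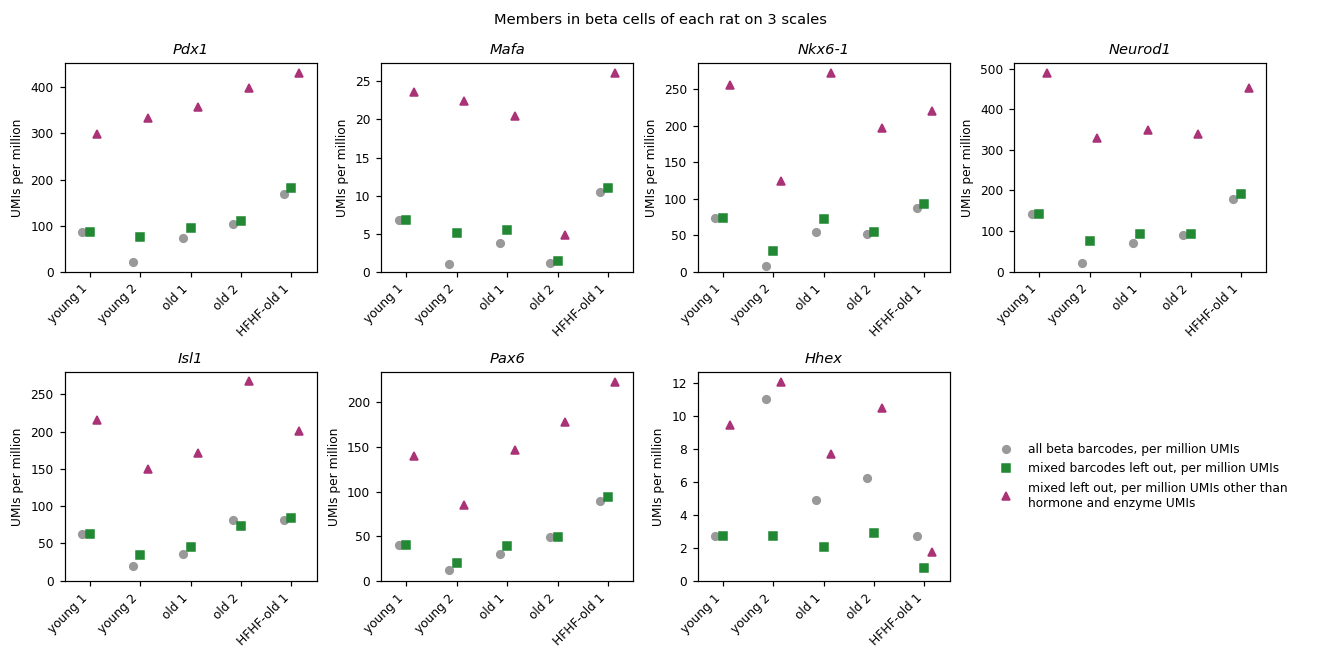
Levels of the 7 factors in the beta cells of 5 rats, in UPM with all barcodes (circles), in UPM with mixed barcodes left out (squares) and in non-hormone UPM with mixed barcodes left out (triangles). Leaving out mixed barcodes moves Pdx1 in young replicate 2 from 20.6 to 75.3 and leaves it near its first value in young replicate 1.

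Nkx6-1, Neurod1, Isl1 and Pax6 also rose from the lowest to the highest step in all 5 rats. Nkx6-1 went from 0.984 in the lowest to 112 non-hormone UPM in the highest step of young replicate 2 and from 20.2 to 220 in HFHF-old replicate 1. In the same 2 rats Neurod1 went from 18.7 to 281 and from 22.8 to 448, Isl1 from 22.6 to 141 and from 10.1 to 205, and Pax6 from 6.89 to 92.4 and from 48.0 to 219. In HFHF-old replicate 1 the step of 20 to 40%, on 33 barcodes, held still more Nkx6-1 (250), Neurod1 (576), Isl1 (254) and Pax6 (284). Mafa did not follow in every rat, and in old replicate 2 it was 5.67 in the lowest step on 1 UMI and 4.47 in the highest on 20. Hhex went the other way, from 22.6 to 6.90 in young replicate 2, from 22.8 to 3.49 in HFHF-old replicate 1 and from 56.7 to 18.1 in old replicate 2. These are descriptions over barcodes of the same libraries, without a test.

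**Figure D4:**
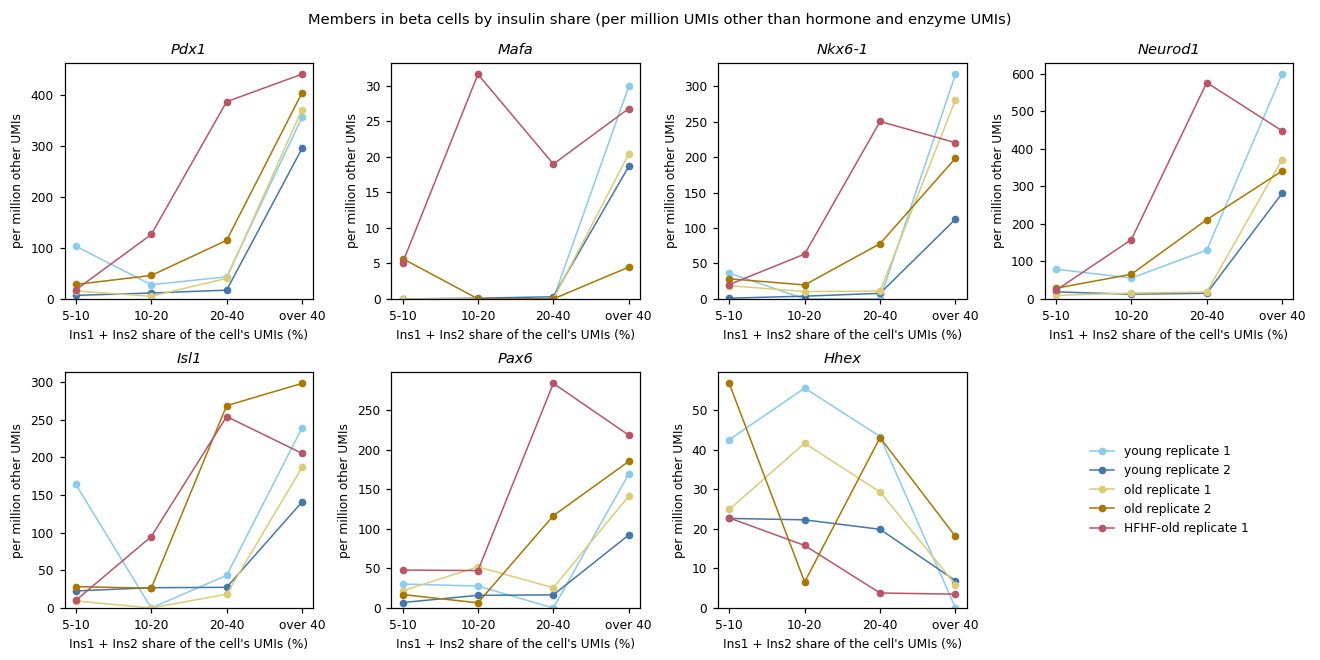
Levels of the factors in beta barcodes by their insulin share (steps of 5 to 10, 10 to 20, 20 to 40 and over 40% of UMIs), in UMIs per 1000000 UMIs other than those of hormone and enzyme genes, with a line per rat. Pdx1 reaches 295 to 441 in the highest step of all 5 rats, and Hhex falls in young replicate 2 from 22.6 to 6.90.

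The share of cells with at least 1 UMI gave the same division. In beta cells Pdx1 was detected in a median of 23.3% of cells over the rats (7.69 to 40.5%), Nkx6-1 in 20.6%, Neurod1 in 23.4%, Isl1 in 21.5%, Pax6 in 22.2% and Mafa in 2.99%. In T and NK lymphocytes the medians were 0.128%, 0.248%, 0.336%, 0.439%, 0.409% and 0.00519%. Median depth ran from 768 to 6678 UMIs per cell in beta cells and from 3382 to 8772 in lymphocytes, so the beta shares were the larger at the lower depth. With mixed barcodes left out, Pdx1 was detected in 41.6, 30.6, 40.8, 37.1 and 87.3% of beta cells in the 5 rats. Nkx6-1 was detected in 37.6, 23.9, 37.5, 29.7 and 81.0% of them, at median depths of 1866 to 36864 UMIs. In ductal cells the medians for Pdx1 and Nkx6-1 were 50% and 30.8%, at median depths of 3853 to 12436 UMIs. Thinned to 2000 UMIs per cell, which left out 2110 of 6150 beta cells, Pdx1 was still found in 13.3% of beta cells, Nkx6-1 in 8.10% and Pax6 in 7.48%, whereas the median for Mafa was 0. Hhex was detected in 3.93% of beta cells, against 10.1% of lymphocytes, which hold Hhex themselves, and 1.57% of acinar cells, whose median depth ran from 2387 to 8401 UMIs. It was found in 87.5% and 72.7% of the delta cells of the young rats and in 48.5 to 92.3% of ductal cells over 5 rats.

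Detection of several factors in the same cell was counted in deeper cells, without an expected share. Among unmixed cells with at least 5000 UMIs, Pdx1, Mafa and Nkx6-1 were all 3 detected in 21.0, 13.8, 18.8, 3.93 and 30.6% of beta cells in the 5 rats, and in 0% of alpha, PP, acinar and ductal cells and of the 18 delta cells of young replicate 1, classes in which Mafa had 0 to 2 UMIs in all. The low share was that of old replicate 2, the rat with little Mafa, where 65.9% of beta cells had 2 of the 3. Neurod1, Isl1 and Pax6 were all 3 detected in 73.3, 71.6, 78.6, 50.6 and 88.2% of alpha cells, in 58.0, 25.7, 47.1, 59.8 and 79.2% of beta cells and in 43.6, 59.7, 58.8, 40.1 and 70.2% of PP cells. At most 0.176% of acinar cells had all 3. Depth differed between these cells, with medians of 11213 to 41553 UMIs in these beta cells and 13326 to 26739 in the alpha cells.

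Whether the factors changed with age or with the long diet was asked in beta, alpha and PP cells by comparing old with young and HFHF-old with old rats. None of the 7 factors was called in any of these 6 comparisons, and none had an unadjusted p under 0.05 with edgeR or DESeq2. The background was 0% of 13058 genes called in beta cells for both comparisons, 0.015% and 0.0301% of 13311 in alpha cells for old against young and HFHF-old against old, and 0.0182% and 0.0274% of 10968 in PP cells. It moved many-fold with single libraries, to 0.9% in alpha cells for old against young without old replicate 1, and in PP cells to 1.09% and 1.38% without young replicate 1 and 1.21% and 1.63% without young replicate 2, and was 0.481% in alpha cells for old against young with the replicate block. None of the 7 factors was called in any of these alternatives. Values for HFHF-old rest on 1 rat, and with 2 rats a group p-values measure only the spread between these rats. In HFHF-old against old that spread comes from the young and old rats alone, so an absent call does not show an absent effect of diet.

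In beta cells the factor with the smallest p for old against young was Pax6, at 0.81 ± 0.74 on the log2 scale (edgeR adjusted p = 1.00) and from 0.08 to 2.14 over its alternatives. For HFHF-old against old it was Hhex, at −1.82 ± 0.87 (edgeR adjusted p = 1), with the low levels given above. HFHF-old replicate 1 had the highest beta level of the 5 rats for Pdx1, Mafa, Nkx6-1, Neurod1, Isl1 and Pax6 with all barcodes, and the share of all genes highest in this rat was not counted. In unmixed beta cells, a smaller set than all barcodes, HFHF-old replicate 1 had the lowest hormone and enzyme share, 58.0% against 71.2 to 77.4% in the others. In non-hormone UPM with mixed barcodes left out, Pdx1 stood at 300 and 333 in the young pair, 356 and 399 in the old pair and 432 in HFHF-old replicate 1, and how many genes order the rats in this way was not counted. The edgeR fit of Pdx1 with these choices gave 0.26 (log2, adjusted p = 0.945) for old against young and 0.19 (adjusted p = 0.859) for HFHF-old against old, and over all alternatives the adjusted p ran from 0.0825 to 1 and from 0.859 to 1. With all barcodes the folds were 0.91 and 0.17. That for old against young ran from 0.12 to 2.52 over its alternatives, the highest without young replicate 1 and 0.17 without young replicate 2, and that for HFHF-old against old from −0.60 to 0.47, so its direction turned. In non-hormone UPM with mixed barcodes left out Mafa was 23.6, 22.4, 20.5, 4.87 and 26.2, and Nkx6-1 256, 124, 273, 197 and 220. On that scale Nkx6-1 of the HFHF-old rat lay inside the range of the others, as did Neurod1 and Isl1 by the values given above. Pdx1, Mafa and Pax6 stayed highest in that rat.

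In alpha cells 5 of the factors could be tested, Mafa and Nkx6-1 being too low. Isl1 had the smallest p for old against young, at 0.51 ± 0.40 (log2, edgeR adjusted p = 1.00), and Pdx1 for HFHF-old against old (edgeR adjusted p = 0.62), where it was at 0 UMIs in the alpha cells of HFHF-old replicate 1 with a floor of 5.14 UPM, above all other alpha values. In PP cells 4 factors were tested. Neurod1 had the smallest p for old against young, at −0.46 ± 0.39 (edgeR adjusted p = 1.00), and Pdx1 for HFHF-old against old, at −0.71 ± 0.59 (edgeR adjusted p = 0.788). No difference in the effects of age and diet between beta and alpha cells was called either. For diet it rests on 1 HFHF-old rat with 30 alpha cells, and the young and old rats alone supply the spread. For the difference of effects 0% of 14165 genes and 0 of 7 factors were called in both comparisons, with 0 factors at an unadjusted p under 0.05 by edgeR and by DESeq2, and the smallest p were those of Pax6 for old against young (1.05 ± 0.60 on the log2 scale, edgeR adjusted p = 1) and Pdx1 for HFHF-old against old (edgeR adjusted p = 1).

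**Figure D5:**
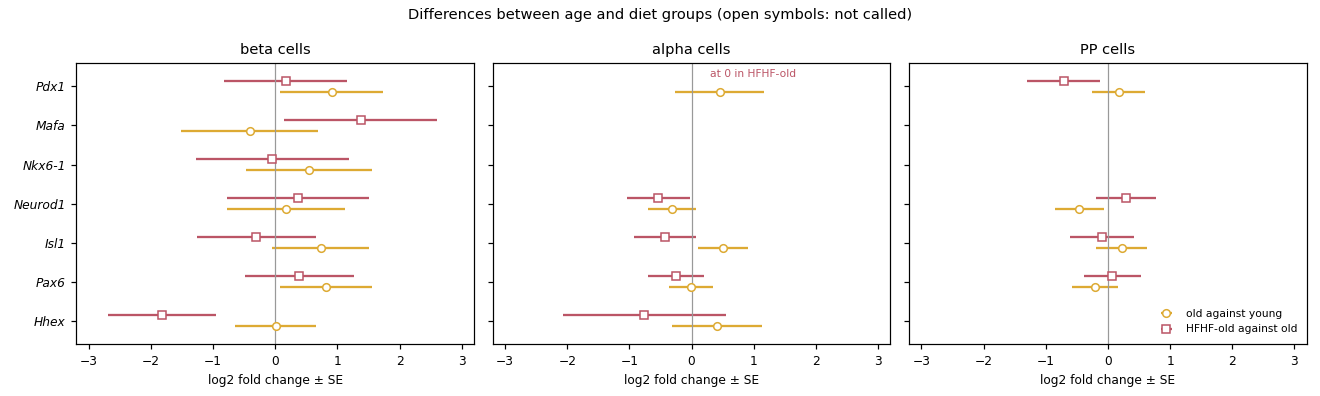
Log2 fold changes ± SE of the factors for old against young (circles) and HFHF-old against old (squares, HFHF-old from 1 rat) in beta, alpha and PP cells (edgeR). All symbols are open since no factor was called, and the SE are wide, as for Pax6 in old against young beta cells at 0.81 ± 0.74.

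Genes known to act under or beside the 7 factors were counted from lists, and log2 fold changes are given for members that passed the test. The lists were chosen with earlier results of these data known. Their counts and medians, here and for delta and acinar cells, are therefore descriptions and no independent check. Of 15 tested beta cell targets, 9 were higher and 4 lower in beta than in alpha cells, with a median of 3.43 against 0.06 over all genes. The share of all genes called in this comparison, in either direction, was 26.3%, and the counts of the other lists for beta against alpha cells stand beside the same share. Without Ins1 and Ins2, which defined the class, 7 of 13 were higher and 4 lower, with a median of 2.27. Ins2 (8.66) and Ins1 (8.41) led together with Slc2a2 (7.78), the glucose transporter, and Sytl4 (7.34), which acts on insulin granules. Of 22 other islet and pancreas transcription factors, 12 were lower and 1 was higher in beta than in alpha cells. The alpha cell factors Irx2 (−5.42) and Irx1 (−4.72) and the POU factor Pou3f4 (−5.69) were among the lower ones, and Gata4 (3.18), which was also higher in acinar than in islet cells, was the higher one. Of 4 acinar transcription factors 3 were higher in the beta class, with Ptf1a at 2.63, Bhlha15 at 2.28 and Rbpjl at 1.72, and these and Gata4 stand beside the digestive enzyme transcripts in mixed barcodes given above, whose part was not tested. Among 14 partners and cofactors 2 were higher (Rcor2 1.32, Tle4 1.20) and 5 were lower. Of 7 genes linked with loss of beta cell identity or kept low in healthy beta cells, Aldh1a3 (1.63) and Ldha (1.61) were higher and Gast (−2.48) was lower in the beta class. All folds of the lists were fitted with mixed barcodes included. The part of transcripts from other cells in the folds of these 3 genes was not tested.

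Beta cell targets were split in delta cells. Of the 15 targets, 4 were higher and 1 lower in delta than in alpha cells, where 4.39% of all genes were called, namely Glp1r (6.44), the receptor of glucagon-like peptide 1, Pcsk1 (5.54), a proinsulin-cleaving enzyme, Slc2a2 (3.96) and Iapp (3.55), against Slc30a8 (−2.70), a zinc transporter of granules. Between beta and delta cells, where 11.4% of all genes were called, 7 of the 15 were higher in beta cells and 2 lower, or 5 and 2 of 13 without Ins1 and Ins2. Of the 22 other transcription factors, 2 were higher and 6 lower in delta than in alpha cells, Irx1 at −4.12 among the lower ones. Against acinar cells, where 47.9% of all genes were called and the split of higher and lower calls turned with the scaling as given above, 15 of the 22 were higher and 3 lower in islet cells, with Myt1 (5.62), Nkx2-2 (5.50) and Pou3f4 (5.41) leading and Gata4 at −4.91, and all 4 acinar factors were lower. None of these listed genes was called for age or diet in beta, alpha or PP cells.

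Over the 28 sums per rat and class of alpha, beta, PP, delta, acinar and ductal cells, Neurod1, Isl1 and Pax6 were closely correlated, in a set that includes acinar and ductal sums with far lower levels of all 3, while the order of mean UPM among the islet classes was that of delta, alpha, PP and beta for Isl1 and Pax6 and began with alpha cells for Neurod1. Pearson's r of log2(UPM + 1) was 0.968 between Neurod1 and Isl1, 0.98 between Neurod1 and Pax6 and 0.985 between Isl1 and Pax6. Pdx1 went with Nkx6-1 (r = 0.798) and Hhex (r = 0.637), and Hhex did not follow Neurod1 (−0.251), Isl1 (−0.153) or Pax6 (−0.198). Among 8210 genes, the closest to Isl1 and Pax6 was Scgn, a calcium-binding protein of endocrine cells, at r = 0.989 and 0.991, and Disp2 came second for Neurod1, Isl1 and Pax6. The closest to Nkx6-1 was Slc2a2 (r = 0.893), to Pdx1 Hadh (r = 0.891), a mitochondrial enzyme of fatty acid oxidation, to Mafa Gad2 (r = 0.922), which makes the transmitter GABA, and to Hhex Prdm16 (r = 0.907). These sums share libraries and rats, so the correlations are descriptions over classes and not over independent samples.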

How the data were processed

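Single cells of the pancreas of 6 rats were measured with the 10x Genomics 3' kit. The authors ran Cell Ranger, with the build Rnor_6.0 per the submitters' processing notes, and deposited UMI counts per gene and barcode. Barcodes with fewer than 200 genes, over 25% mitochondrial UMIs or a gene number in the top 1% were left out, limits that the study's methods also state, although the study gives a larger number of cells kept than remained here. Acinar cells had digestive enzymes at 20% or more of UMIs and no islet class, and other cells at least 3 markers of a class, ductal cells also Epcam. No doublet caller was run, and mixed barcodes stand in for one. Counts were summed per rat and class and tested with the quasi-likelihood test of edgeR 4.0.16 (TMM factors, low genes removed by filterByExpr), and with DESeq2 1.42.0 as an alternative, in R 4.3.3. SE were calculated back from each F value. The alternative named free RNA subtracted took the full mean counts of the library's T and NK lymphocytes off each cell. Lymphocytes had median depths of 3382 to 8772 UMIs, against 768 to 6678 in beta cells. It thus removed more than free RNA, and is no measure of free RNA alone. Scripts were tested on simulated data. Named genes were all members, in the age and diet comparisons the member with the smallest p where none was called, and the 3 best correlated genes per member, of which some are named. Genes of the lists, and steps of insulin share, were chosen after their values were seen. The members, lists and tests were chosen with earlier results of these data known. Replicate numbers were not taken as pairing rats, since the deviations of young and old rats correlated at −0.373 in beta cells, although the other 5 correlations were positive, at 0.184 in alpha and 0.27 in PP cells and 0.223, 0.152 and 0.232 in acinar cells. Results of some listed genes are not reported here.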

Additional observations from a re-analysis of the deposited data

Results flagged for a closer look

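The 5 beta cells of HFHF-old replicate 2, a rat whose islet cells entered no comparison though its 67 acinar cells did, held 5 of the 7 factors above the level in lymphocytes. Pdx1 stood at 137 UPM (15 UMIs), Nkx6-1 at 91.1 (10), Neurod1 at 173 (19), Isl1 at 36.5 (4) and Pax6 at 45.6 (5), of 109752 UMIs, and Mafa and Hhex had 0 UMIs, which allows up to 27.3 UPM. With so few cells these are values without a replicate check.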

How the results depend on the processing

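Of 566 alternative values for 38 folds of single factors, 523 kept their direction and their side of the threshold, 15 lost their call, 12 gained it and 16 reversed, and 20 of the folds kept both in all alternatives. The values kept include those of age and diet without HFHF-old replicate 2. That rat was in none of these fits, so they could not change. The reversals were Neurod1 in beta against alpha cells, at 0.16 with mixed barcodes left out, 0.18 with free RNA subtracted, 0.13 with mixed barcodes left out and scaling without hormone and enzyme UMIs, 0.01 without young replicate 2 and HFHF-old replicate 1 together, and 0.15 without young replicate 2, in a range from −0.49 to 0.15 over the rats left out, Pax6 in beta against PP cells, at −0.06 with scaling without hormone and enzyme UMIs, −0.13 without old replicate 2 and −0.15 without HFHF-old replicate 1 (range −0.15 to 0.42 over the rats left out), Isl1 in delta against alpha cells, at −0.36 with free RNA subtracted, Pax6 there, at −0.09 with free RNA subtracted, −0.16 without the same 2 libraries and −0.08 without young replicate 2 (range −0.08 to 1.01), and Pdx1 in HFHF-old against old beta cells, at −0.04 with mixed barcodes left out, −0.43 with the replicate block, −0.60 with the block crossed and −0.10 without old replicate 1 (range −0.10 to 0.47). With free RNA subtracted 3 factors (14.7% of all genes, whose median moved to −1.20) were called for beta against alpha and 1 (0.148%) for delta against alpha cells. With mixed barcodes left out delta cells were 1 rat, so no count is given for beta against delta cells. Leaving out each rat in turn gave 4 to 5, 4 to 5, 2 to 4, 2 to 2 and 4 to 5 factors called for beta against alpha, PP and delta cells, delta against alpha cells and islet against acinar cells, beside 17.5 to 26.1, 14.6 to 21.2, 3.26 to 12.3, 1.05 to 4.24 and 38.8 to 47.5% of all genes, and 0 to 0 for every comparison of age or diet and for both differences of effects. HFHF-old against old could not be fitted without HFHF-old replicate 1. Leaving out either young rat left delta cells at 1 rat, and the ranges of the comparisons with delta cells include these fits. With the replicate block, and with the numbers crossed in beta cells, an alternative added after seeing the data, 0 factors were called for age or diet, and the crossed numbers gave 0.482% and 0.352% of all genes for old against young and HFHF-old against old. Without the rat as a block 4, 4, 3, 2 and 4 factors and 15.9, 12.6, 6.1, 2.96 and 44.4% of all genes were called in the 5 class comparisons. In UPM without hormone and enzyme UMIs, mean beta levels were 261 for Pdx1, 13.0 for Mafa, 163 for Nkx6-1, 294 for Neurod1, 166 for Isl1, 126 for Pax6 and 14.6 for Hhex, and Hhex was 0.0949 UPM with free RNA subtracted, a subtraction that rests on lymphocytes that hold Hhex themselves. Thinned shares were 8.10% for Nkx6-1 and 7.48% for Pax6. Scaling without hormone and enzyme UMIs also changed the split of genes called higher and lower in beta cells from 2069 and 1443 to 1513 and 1701 against alpha, from 1606 and 1183 to 1067 and 1509 against PP, and from 767 and 753 to 446 and 916 against delta cells, and moved the median of all genes for HFHF-old against old to 0.23, 0.21 and 0.23 in beta, alpha and PP cells. The cause was not tested. The alternatives on mixed barcodes with scaling and on 2 libraries were also chosen after seeing the data. Delta cells, Mafa and the HFHF-old group are limited by depth and by the number of rats.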
